A study of Mus musculus with 26 samples.

Results

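The genes described here are 41 markers of dividing cells, 16 that act in S phase and 25 that act in G2 and mitosis (G2/M), followed across 26 RNA libraries of mouse haematopoietic stem cells (HSCs). They were chosen by symbol as known cell cycle genes. All 41 were found among the 23416 genes of the deposited table, and all 41 had at least 1 RPKM in at least 5 libraries, the filter that 12116 genes passed. RPKM scales the reads of a gene to its length and to the depth of the library, so levels of different genes can be set side by side. A score per library was formed for each class as the mean of log2(RPKM + 1) over its genes.

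The libraries fall into 4 genotype groups. JAK2V617F + Ezh2 loss (n = 7 libraries) carries the activating JAK2V617F mutation of the cytokine-receptor kinase JAK2, found in myeloproliferative neoplasms, together with loss of Ezh2, the catalytic subunit of the repressive Polycomb complex PRC2. JAK2V617F (n = 7) and Ezh2 loss (n = 7) each carry 1 of these changes, and controls (n = 5) carry neither. The genotype label of the combined group spells the mutation JAK2V17F, read here as JAK2V617F. In every group HSCs were sorted from bone marrow by flow cytometry and RNA was amplified with Smart-Seq2, a full-length cDNA method for small inputs. The labels used here give no age, sex, strain, allele, Cre driver, promoter or number of cells per library, and do not say whether libraries came from separate animals. Adjusted p-values therefore measure only the spread between these libraries, which may be technical. In bulk RNA, fewer dividing cells and less of a transcript per cell cannot be told apart.

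The labels also differ in how library titles are written. In 15 titles the number stands before the group code (number-first) and in 11 after it (number-last), and what the style marks is not given. Number-first titles make up 7 of 7 JAK2V617F + Ezh2 loss, 2 of 7 JAK2V617F, 2 of 7 Ezh2 loss and 4 of 5 control libraries. Values within a style are given beside the pooled ones for that reason.

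Cells that enter S phase first license and fire replication origins with the MCM helicase, CDC6, CDC45 and the GINS complex, and make DNA precursors with ribonucleotide reductase, thymidylate synthase and thymidine kinase. In G2 and mitosis, cyclin A and cyclin B with CDK1, the Polo and Aurora kinases, spindle motors and the anaphase-promoting complex carry out chromosome segregation. Genes of the first kind are typically switched on by E2F factors. Many of the second kind are held off in resting cells by the DREAM complex and activated in dividing cells by B-MYB and FOXM1, which act through a promoter element called the CHR, often near CCAAT boxes bound by NF-Y. Adult HSCs are known for spending most of their time outside the cycle.

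Promoter sequences were available for 34 of the 41 genes, 14 S and 20 G2/M genes, in RefSeq on GRCm38.p6. Of these, 7 are printed here to show the elements that tell the classes apart and because these genes recur in the results: 4 G2/M genes, then 3 S genes. Each run of 200 bases goes from 150 bases before the annotated start site to 50 after it, on the gene's own strand. Capitals mark the letters searched for on both strands. The CHR was searched as TTTGAA and in its variant form TTCGAA, and the CCAAT box by its own letters. The E2F element was searched as TTTCCCGC, TTTCGCGC, TTTGCCGC or TTTGGCGC.
Plk1 (chr7:122159285-122159484, plus strand): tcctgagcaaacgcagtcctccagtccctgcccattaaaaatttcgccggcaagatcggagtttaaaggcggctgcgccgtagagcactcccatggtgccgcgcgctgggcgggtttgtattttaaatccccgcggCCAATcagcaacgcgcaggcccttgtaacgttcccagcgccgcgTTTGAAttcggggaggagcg
Ccnb2 (chr9:70421505-70421704, minus strand): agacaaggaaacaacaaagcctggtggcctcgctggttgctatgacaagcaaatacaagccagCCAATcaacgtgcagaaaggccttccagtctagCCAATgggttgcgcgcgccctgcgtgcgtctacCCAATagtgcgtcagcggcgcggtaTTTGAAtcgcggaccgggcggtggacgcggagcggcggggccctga
Kif11 (chr19:37376232-37376431, plus strand): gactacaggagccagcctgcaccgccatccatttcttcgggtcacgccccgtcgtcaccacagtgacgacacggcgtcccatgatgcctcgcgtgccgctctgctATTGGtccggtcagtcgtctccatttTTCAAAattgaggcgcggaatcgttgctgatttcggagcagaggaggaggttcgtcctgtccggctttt
Top2a (chr11:99024140-99024339, minus strand): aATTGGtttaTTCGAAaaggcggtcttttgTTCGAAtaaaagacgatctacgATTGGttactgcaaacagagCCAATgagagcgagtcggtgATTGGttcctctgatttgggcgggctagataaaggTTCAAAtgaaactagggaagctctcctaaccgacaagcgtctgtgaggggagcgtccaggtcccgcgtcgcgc
Cdc6 (chr11:98908001-98908200, plus strand): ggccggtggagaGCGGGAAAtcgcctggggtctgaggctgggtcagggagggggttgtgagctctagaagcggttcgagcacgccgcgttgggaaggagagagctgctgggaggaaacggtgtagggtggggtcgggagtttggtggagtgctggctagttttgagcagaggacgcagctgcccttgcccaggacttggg
Cdc45 (chr16:18811923-18812122, minus strand): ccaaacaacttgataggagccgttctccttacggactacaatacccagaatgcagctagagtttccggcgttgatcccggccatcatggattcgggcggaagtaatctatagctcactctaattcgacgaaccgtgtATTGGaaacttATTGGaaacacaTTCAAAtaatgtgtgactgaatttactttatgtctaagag
Mcm6 (chr1:128359656-128359855, minus strand): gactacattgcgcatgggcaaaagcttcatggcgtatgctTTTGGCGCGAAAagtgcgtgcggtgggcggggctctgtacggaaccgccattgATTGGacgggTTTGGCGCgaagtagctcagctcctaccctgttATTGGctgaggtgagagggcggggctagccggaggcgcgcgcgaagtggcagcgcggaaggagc

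Plk1, Ccnb2, Kif11 and Top2a each hold CHR letters and at least 1 CCAAT box in these stretches. Cdc6 holds an E2F match alone, and Mcm6 holds 3 E2F matches, of which 2 overlap, and 2 CCAAT boxes. Cdc45, although an S gene, holds 2 CCAAT boxes and CHR letters and no E2F match. Over the whole promoter window, from 250 bases before the start to 50 after it, CHR letters stood in 16 of 20 G2/M genes (80.0%), 3 of 14 S genes (21.4%) and 21.7% of 27025 promoters. CCAAT stood in 17 of 20 G2/M genes (85.0%), 10 of 14 S genes (71.4%) and 41.1% of all promoters. Both together stood in 15 of 20 G2/M genes (75.0%), 3 of 14 S genes and 8.6% of all promoters. E2F letters stood in 1 of 20 G2/M genes (5.0%), Cdk1, in 5 of 14 S genes (35.7%) and in 2.6% of all promoters. The letters were chosen with their matches in view, so these shares describe the promoters and carry no test. A match is not evidence of binding, and the lack of one says only that these letters are not in this window.

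The libraries held 7.82 to 29.2 megareads (M) by whole-read steps in the values, with medians of 19.7 M (JAK2V617F + Ezh2 loss), 14.0 M (JAK2V617F), 13 M (Ezh2 loss) and 19 M (control). Genes at 1 RPKM or more numbered 9223 to 11007 per library. Ezh2 itself averaged 17.4 ± 9.07 RPKM in JAK2V617F + Ezh2 loss, 27.1 ± 8.21 in JAK2V617F, 17.6 ± 9.0 in Ezh2 loss and 23.7 ± 10.4 in control libraries (SD, n = 7, 7, 7 and 5). The ranges overlap, and a gene-level sum does not test an exon deletion. Jak2 averaged 11.3 ± 7.93, 12.8 ± 5.71, 17.8 ± 9.37 and 16.2 ± 4.71 RPKM in the same order. Of 13 HSC markers, 11 to 13 stood at 1 RPKM or more in each library. Cd48, a surface protein that HSCs lack and progenitors and mature blood cells carry, reached 1 RPKM in 5 of 7 JAK2V617F + Ezh2 loss, 1 of 7 JAK2V617F, 3 of 7 Ezh2 loss and 0 of 5 control libraries. Its means were 17.8, 2.56, 11.8 and 0 RPKM in that order, and it passed in no comparison.

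S transcripts were abundant and G2/M transcripts patchy. Mean levels of the S genes over the 26 libraries ran from 6.17 RPKM for Cdc6 to 135 RPKM for Pcna, with a median of 33.4. Only 12 of 416 S values (2.9%) were at 0 reads, and 9 of 16 S genes reached 1 RPKM in every library. Mean levels of the G2/M genes ran from 1.09 RPKM for Cenpf to 51.2 RPKM for Ccnb2, with a median of 10. Of 650 G2/M values, 151 (23.2%) were at 0 reads, and Smc4 was the only one of the 25 at 1 RPKM or more in every library. The share of G2/M values at 0 reads was 26.3% in JAK2V617F + Ezh2 loss, 22.9% in JAK2V617F, 14.9% in Ezh2 loss and 31.2% in control libraries. By title style it was 25.9% in number-first and 19.6% in number-last libraries.

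**Figure D1:**
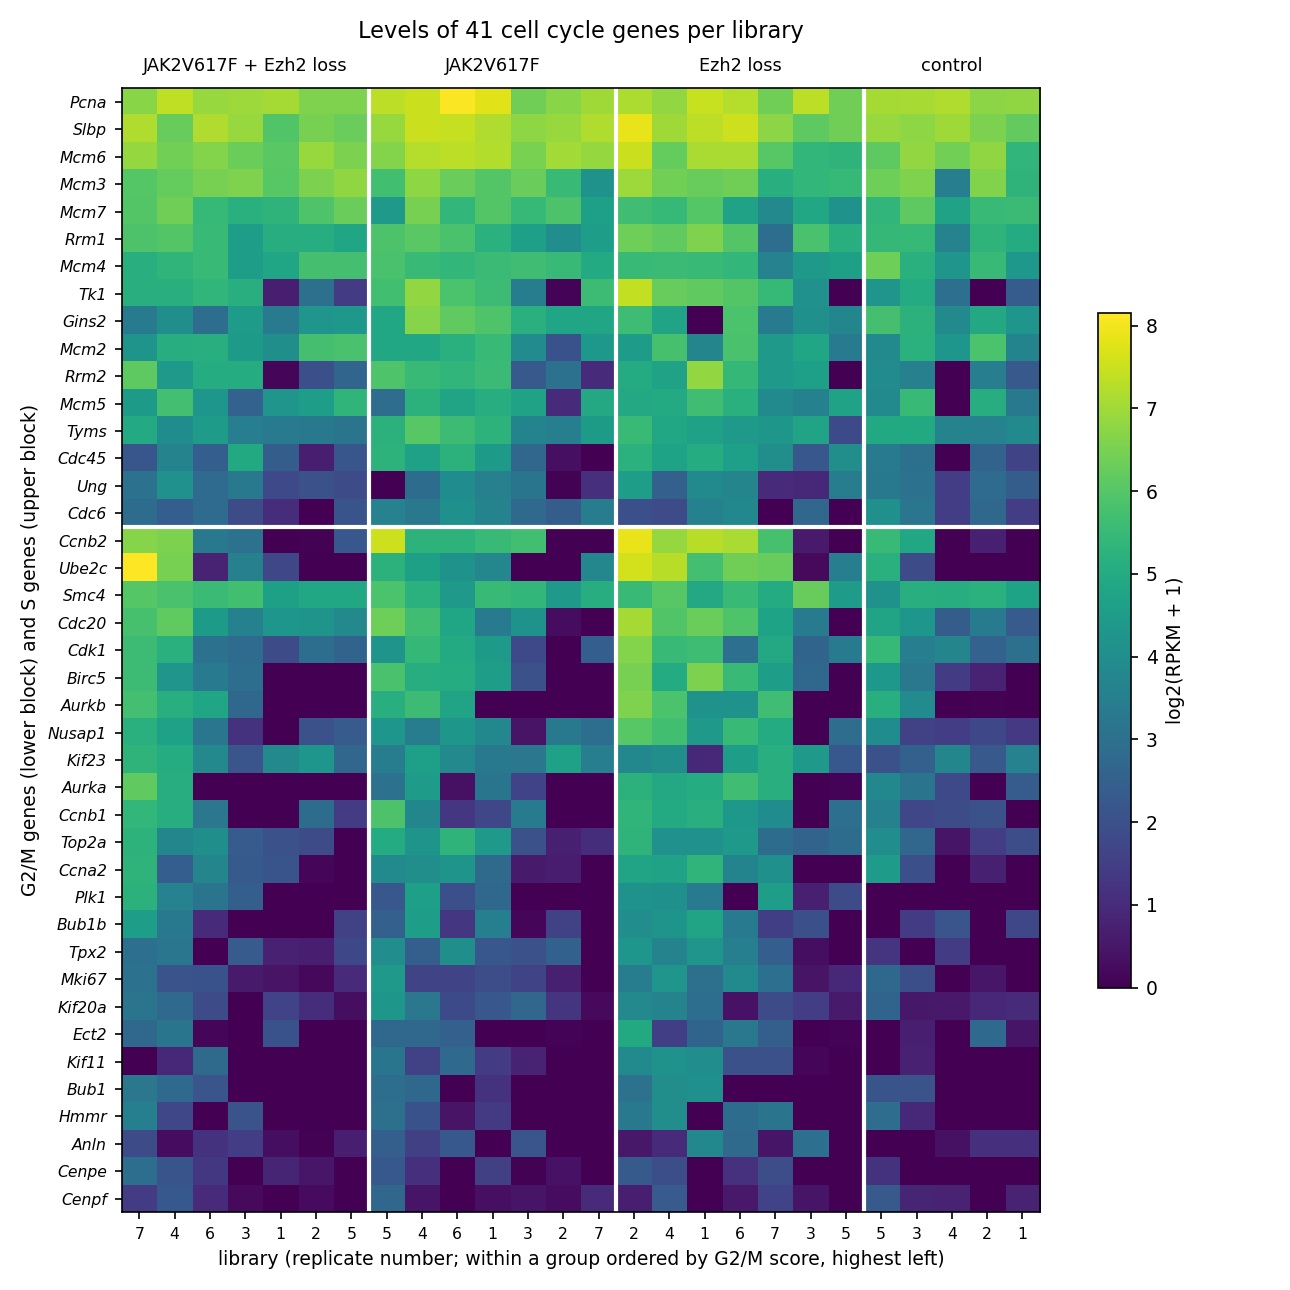
Level of each gene (one per line of the map) as log2(RPKM + 1) in each of the 26 libraries, S genes above the white line and G2/M genes below it, libraries ordered within a group by G2/M score. S genes are coloured in nearly all libraries, whereas most G2/M genes are bright in some libraries of each group and at or near 0 in others.

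The G2/M score was spread widely within every group. It ran from 1.01 to 4.44 with a median of 1.66 in JAK2V617F + Ezh2 loss, from 0.80 to 4.09 with a median of 2.60 in JAK2V617F, and from 1.04 to 4.66 with a median of 3.58 in Ezh2 loss. The control libraries stood at 0.98, 1.05, 1.99, 1.09 and 2.86, the highest being the 1 number-last control. Above that highest control lay 2 of 7 JAK2V617F + Ezh2 loss, 3 of 7 JAK2V617F and 5 of 7 Ezh2 loss libraries, 1 of the JAK2V617F libraries by less than the second decimal (2.86 for both). Above the highest number-first control (1.99) lay 3, 4 and 5 of 7, and among number-first libraries alone 3 of 7, 1 of 2 and 1 of 2. Every mutant group also held libraries at or near the level of the lowest controls, so no mutant group was separate from control.

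In mean ± SD the G2/M score was 2.19 ± 1.4 in JAK2V617F + Ezh2 loss, 2.34 ± 1.3 in JAK2V617F, 3.20 ± 1.46 in Ezh2 loss and 1.59 ± 0.821 in control libraries. The difference from control was 0.60, 0.75 and 1.60 for these mutant groups, each on the log2 scale. Within number-first libraries it was 0.92, 0.83 and 1.54. Within number-last libraries, where a single control remains, it was -0.42 for JAK2V617F and 0.49 for Ezh2 loss, and no JAK2V617F + Ezh2 loss library exists. Without JAK2V617F + Ezh2 loss replicate 7, the highest of its group, that group's difference from control was 0.23. Without JAK2V617F replicate 5 the JAK2V617F difference was 0.46. The Ezh2 loss difference ran from 1.36 to 1.96 when any 1 library was left out.

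The S score varied less. It averaged 4.64 ± 0.465 in JAK2V617F + Ezh2 loss, 4.97 ± 0.815 in JAK2V617F, 4.87 ± 0.802 in Ezh2 loss and 4.45 ± 0.749 in control libraries. None of 7 JAK2V617F + Ezh2 loss libraries exceeded the highest control (5.18). In JAK2V617F 3 of 7 did, and in Ezh2 loss 4 of 7. The differences from control were 0.19, 0.52 and 0.42, all smaller than the SD of the control libraries. In number-last libraries they were -0.14 for JAK2V617F and -0.18 for Ezh2 loss, against the single control of that style. Without control replicate 4, the lowest S score of all 26, the differences were -0.07 for JAK2V617F + Ezh2 loss, 0.25 for JAK2V617F and 0.16 for Ezh2 loss.

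**Figure D2:**
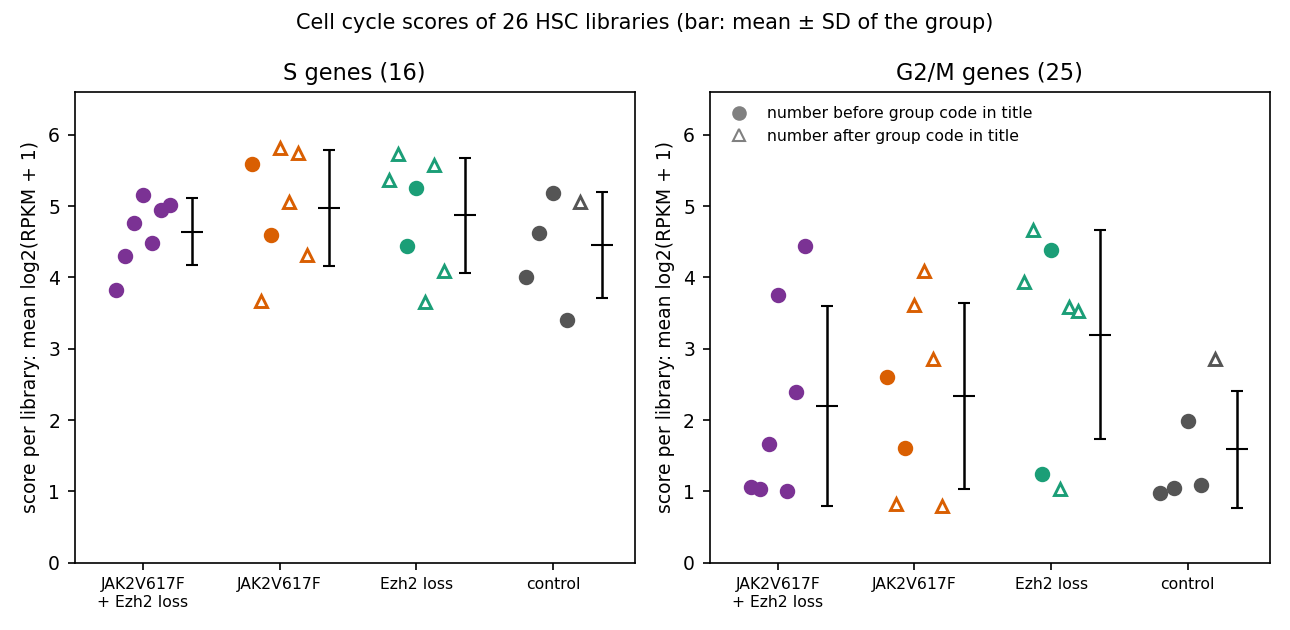
Mean log2(RPKM + 1) of the 16 S genes (left) and the 25 G2/M genes (right) in each library, with filled circles for number-first and open triangles for number-last titles, and bars for mean ± SD of the group. The G2/M score of Ezh2 loss libraries averages 3.20 and that of controls 1.59, and the groups overlap.

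Among the origin-licensing genes, Mcm2 to Mcm7, which encode the replicative helicase, were present in nearly all libraries: Mcm5 in control replicate 4 was the single value at 0 reads. Their group means ran from 20.0 RPKM (Mcm5 in control) to 127 RPKM (Mcm6 in JAK2V617F). Mcm6 ran from 66.5 to 118 RPKM with a median of 93.2 in JAK2V617F + Ezh2 loss, from 90.7 to 160 with a median of 128 in JAK2V617F, and from 38.2 to 181 with a median of 73.1 in Ezh2 loss libraries. The controls held 40.0, 110, 114, 84.8 and 68.9 RPKM. Of the 7 JAK2V617F libraries, 5 lay above the highest control and the others lay within the control range. The log2 fold change of Mcm6 in JAK2V617F against control was 0.67 (SE 0.32, adjusted p = 0.615), or 0.43 without control replicate 1, and against Ezh2 loss 0.59 (SE 0.29, adjusted p = 0.694). Mcm7 averaged 56.8 ± 18.7 RPKM in JAK2V617F + Ezh2 loss and 34.2 ± 18.1 RPKM in Ezh2 loss libraries, a log2 fold change of 0.82 (SE 0.34, adjusted p = 0.246). Mcm3 and Mcm5 in JAK2V617F + Ezh2 loss against control were at 0.71 (SE 0.44, adjusted p = 0.977) and 0.89 (SE 0.75, adjusted p = 0.984). Both rested on control replicate 4: without it the log2 fold changes were 0.17 and 0.0016.

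Cdc6, which loads the helicase onto origins, had the lowest mean of the S genes over the 26 libraries. It ran from 0 to 6.31 RPKM with a median of 3.32 in JAK2V617F + Ezh2 loss, from 4.31 to 16.2 with a median of 9.90 in JAK2V617F, and from 0 to 13 with a median of 3.0 in Ezh2 loss libraries. Controls held 1.80, 5.60, 8.29, 1.81 and 16.1 RPKM. The JAK2V617F libraries were on the high side of both other mutant groups, with overlap in each case. On the log2 scale the fold change was -1.45 for JAK2V617F + Ezh2 loss against JAK2V617F (SE 0.59, adjusted p = 0.182) and 1.33 for JAK2V617F against Ezh2 loss (SE 0.59, adjusted p = 0.661).

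Gins2, a subunit of the GINS complex that activates the helicase, gave the clearest separation of any of the 41 genes. It ran from 6.66 to 21.7 RPKM with a median of 15.8 in JAK2V617F + Ezh2 loss and from 26.5 to 101 RPKM with a median of 35.1 in JAK2V617F libraries. All 7 libraries of the combined group thus lay below all 7 of JAK2V617F alone. Gins2 was the only one of the 41 genes whose libraries did not overlap in this comparison, where 0.801% of all tested genes did not overlap. Its log2 fold change was -1.65 (SE 0.58) and did not pass over all genes (adjusted p = 0.122). It passed when the fit held only these 2 groups (adjusted p = 0.0217) and without Ezh2 loss replicate 1 (adjusted p = 0.0286).

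In Ezh2 loss libraries Gins2 ran from 0 to 56.9 RPKM with a median of 16.2, and the controls held 18.4, 29.5, 36.5, 13.5 and 52.4 RPKM. Both groups overlapped JAK2V617F + Ezh2 loss and JAK2V617F. Its fold change on the log2 scale in JAK2V617F + Ezh2 loss relative to control was -0.98 (SE 0.64, adjusted p = 0.977), and in JAK2V617F against Ezh2 loss 1.57 (SE 0.58, adjusted p = 0.547), or 0.92 without Ezh2 loss replicate 1. Within number-first libraries Gins2 averaged 14.3 RPKM in JAK2V617F + Ezh2 loss (n = 7), 46.9 in JAK2V617F (n = 2), 21.1 in Ezh2 loss (n = 2) and 24.5 in control (n = 4). Gins2 also followed the other S genes least, as described with the correlations.

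Cdc45, which joins GINS and MCM in the active helicase, ran from 0.616 to 29.6 RPKM with a median of 4.25 in JAK2V617F + Ezh2 loss, from 0 to 37.7 with a median of 20.9 in JAK2V617F, and from 3.67 to 36.3 with a median of 23.2 in Ezh2 loss libraries. Controls held 2.17, 4.98, 7.10, 0 and 9.54 RPKM. Of the Ezh2 loss libraries 6 of 7 lay above the highest control, against 2 of 7 JAK2V617F + Ezh2 loss and 4 of 7 JAK2V617F libraries. The log2 fold change was 2.14 for Ezh2 loss relative to control (SE 0.85, adjusted p = 0.507). For JAK2V617F + Ezh2 loss against Ezh2 loss it was -1.63 (SE 0.78, adjusted p = 0.315).

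Pcna, the sliding clamp of DNA polymerase, had the highest mean of the 41 genes over the 26 libraries, although Slbp was higher in Ezh2 loss. It ran from 94.5 to 163 RPKM with a median of 119 in JAK2V617F + Ezh2 loss, from 83.1 to 272 with a median of 160 in JAK2V617F, and from 82.3 to 174 with a median of 140 in Ezh2 loss libraries. The controls held 111, 105, 134, 145 and 132 RPKM. All groups overlapped, and JAK2V617F held the widest range.

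Nucleotide supply genes were more variable than the MCM genes. Tk1, thymidine kinase, ran from 0.593 to 40.6 RPKM with a median of 33.5 in JAK2V617F + Ezh2 loss, from 0.0521 to 112 with a median of 47.0 in JAK2V617F, and from 0 to 166 with a median of 61.6 in Ezh2 loss libraries. Controls held 4.19, 0, 31.7, 6.86 and 17.9 RPKM. Each mutant group had libraries above all controls (4, 5 and 5 of 7) and libraries near 0. On the log2 scale the fold change was 1.79 for JAK2V617F against control (SE 1.2, adjusted p = 0.701) and 2.13 for Ezh2 loss relative to control (SE 1.2, adjusted p = 0.629). Without control replicate 2 these values were 1.06 and 1.4. Rrm2, the regulated subunit of ribonucleotide reductase, averaged 23.1 ± 24.5, 28.8 ± 23.9, 36.2 ± 35.6 and 7.87 ± 5.81 RPKM in JAK2V617F + Ezh2 loss, JAK2V617F, Ezh2 loss and control libraries. Its log2 fold change in Ezh2 loss against control was 1.76 (SE 1.05, adjusted p = 0.652), with 6 of 7 libraries above the highest control, and 1.10 without control replicate 4. Rrm1, the large subunit, averaged 39.9, 39.4, 57.1 and 33.3 RPKM in the same order, and Tyms, thymidylate synthase, 14.7, 32.7, 23.5 and 19.3 RPKM. Ung, which removes uracil from DNA, averaged between 5.72 RPKM in control and 9.25 RPKM in Ezh2 loss libraries.

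Slbp, which binds the stem-loop of replication-dependent histone mRNAs, ran from 60 to 144 RPKM with a median of 89.2 in JAK2V617F + Ezh2 loss, from 107 to 179 with a median of 143 in JAK2V617F, and from 68.8 to 236 with a median of 127 in Ezh2 loss libraries. Controls held 71.7, 92.8, 109, 125 and 118 RPKM. The combined group overlapped every other group. Its log2 fold change was -0.51 against JAK2V617F (SE 0.24, adjusted p = 0.260) and -0.40 against Ezh2 loss (SE 0.24, adjusted p = 0.441). The value against Ezh2 loss was 0.04 in number-first libraries, 0.03 with the erythroid covariate and -0.25 without Ezh2 loss replicate 2. In JAK2V617F against control Slbp was at 0.44 (SE 0.27, adjusted p = 0.664).

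**Figure D3:**
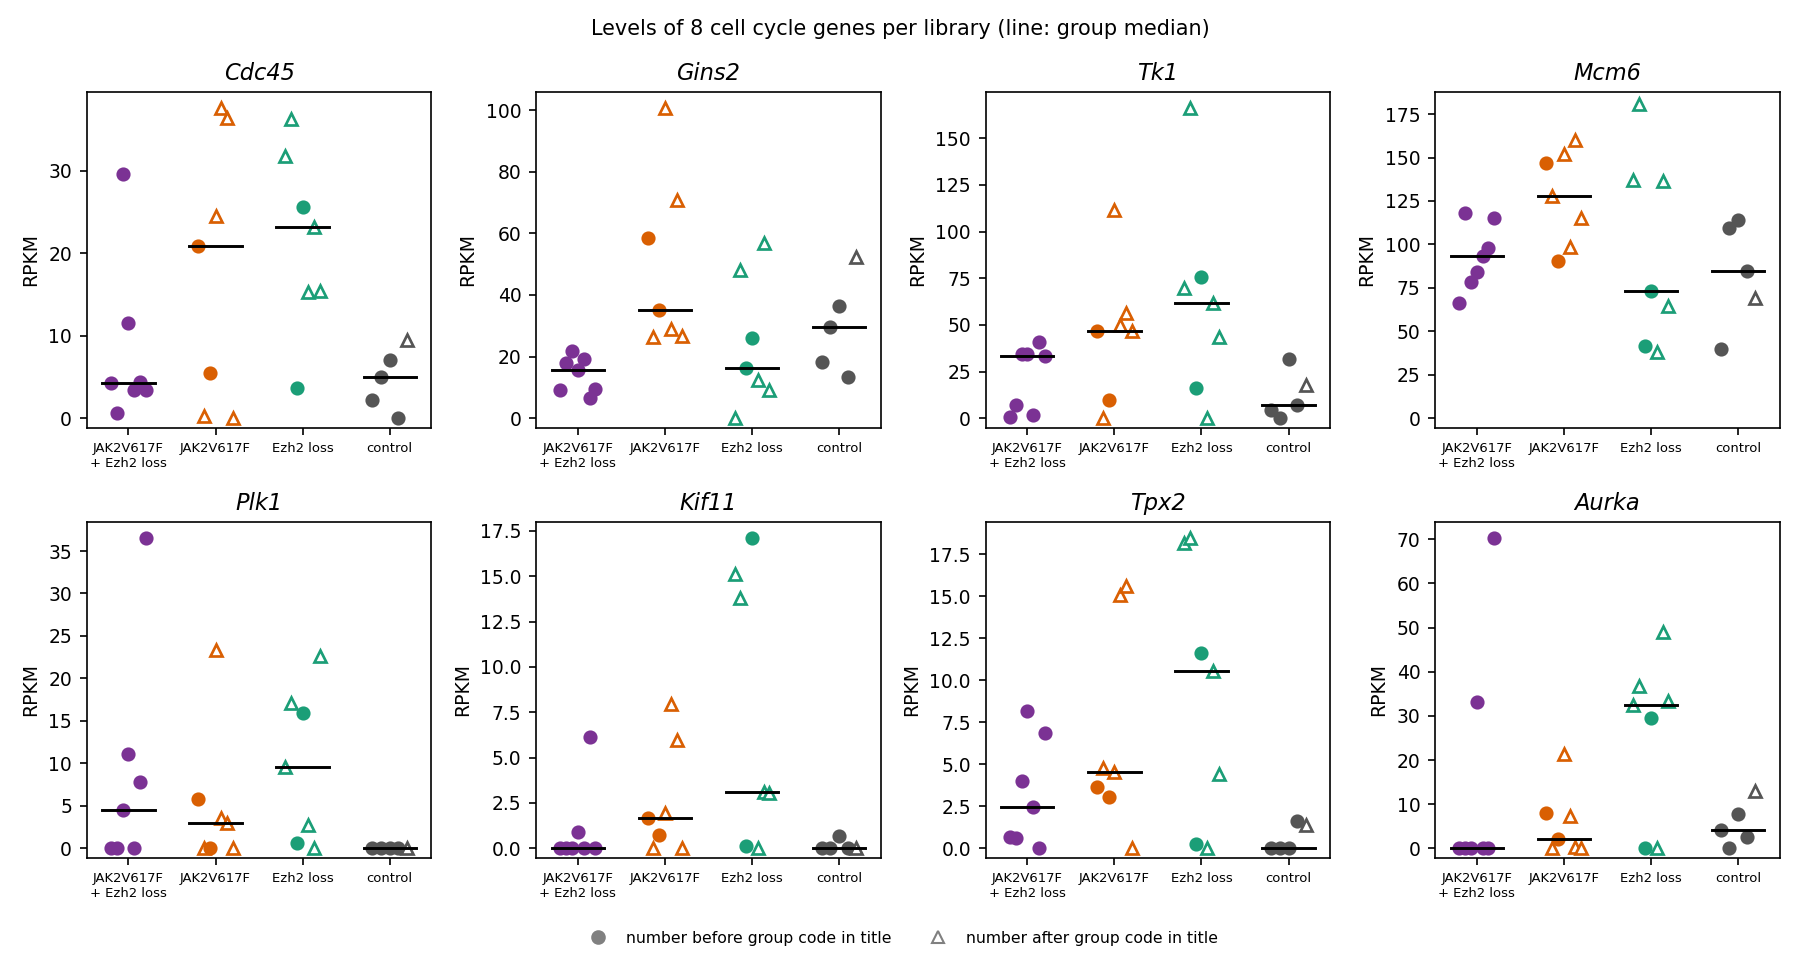
RPKM per library of 4 S genes (top) and 4 G2/M genes (bottom), with the group median as a line and the title style by symbol. Gins2 in JAK2V617F + Ezh2 loss (6.66 to 21.7 RPKM) lies below all JAK2V617F libraries (26.5 to 101 RPKM), and Plk1 is at 0 in all 5 controls.

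Among mitotic kinases, Plk1, the Polo-like kinase that drives mitotic entry and spindle assembly, was at 0 reads in all 5 controls. In JAK2V617F + Ezh2 loss it ran from 0 to 36.6 RPKM with a median of 4.50 and 3 of 7 libraries at 0, in JAK2V617F from 0 to 23.3 with a median of 3.0 and 3 of 7 at 0, and in Ezh2 loss from 0 to 22.7 with a median of 9.56 and 1 of 7 at 0. In these groups 4, 4 and 6 of 7 libraries thus lay above every control. Against a floor of 3 reads per control library (0.0805 RPKM on average), the mean was at least 106-fold higher in JAK2V617F + Ezh2 loss, 63.4-fold in JAK2V617F and 122-fold in Ezh2 loss. Without the highest library of each group these bounds were 48.4, 25.6 and 95.2. The bounds of both JAK2V617F-bearing groups thus depended on 1 library each in size, though not in direction. Such floors cover counting error only, since reads amplified by PCR without molecular identifiers are not independent molecules. The fitted tests did not pass, with adjusted p = 0.977, 0.644 and 0.497.

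Aurka, the centrosome and spindle-pole kinase, was at 0 in 5 of 7 JAK2V617F + Ezh2 loss libraries yet reached 70.4 RPKM in another. It ran from 0 to 21.4 RPKM with a median of 2.10 in JAK2V617F and from 0 to 48.9 with a median of 32.4 in Ezh2 loss libraries. Controls held 4.14, 0, 7.72, 2.46 and 12.9 RPKM. In Ezh2 loss 5 of 7 libraries lay above the highest control. Its fold change on the log2 scale was -2.12 for JAK2V617F + Ezh2 loss against Ezh2 loss (SE 1.08, adjusted p = 0.350) and -1.91 for JAK2V617F against Ezh2 loss (SE 1.08, adjusted p = 0.748). With the neutrophil marker level as a covariate these were -1.17 and -0.19, and with the erythroid level -1.31 and -1.04. Aurkb, the kinase of the chromosomal passenger complex, averaged 16.9, 15.3, 33.3 and 9.71 RPKM in JAK2V617F + Ezh2 loss, JAK2V617F, Ezh2 loss and control libraries, and its partner Birc5, survivin, 11.7, 20.8, 40.4 and 6.06 RPKM.

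Cyclins and their kinase showed the same wide spread. Ccnb1, cyclin B1, ran from 0 to 41.5 RPKM with a median of 6.4 in JAK2V617F + Ezh2 loss, from 0 to 57.6 with a median of 2.33 in JAK2V617F, and from 0 to 38.9 with a median of 19.4 in Ezh2 loss libraries. Controls held 0, 3.03, 2.30, 2.71 and 11.1 RPKM. Here too 5 of 7 Ezh2 loss libraries lay above every control. Its log2 fold change in JAK2V617F against Ezh2 loss was -1.53 (SE 0.95, adjusted p = 0.786), and 0.05 in number-first libraries. Ccnb2, cyclin B2, averaged 30.3 ± 45.1, 50.4 ± 62.1, 99.1 ± 86 and 14.7 ± 20.6 RPKM in JAK2V617F + Ezh2 loss, JAK2V617F, Ezh2 loss and control libraries. Ccna2, cyclin A2, averaged 8.93, 7.71, 16.9 and 5.07 RPKM and Cdk1, the kinase they activate, 15.8, 16.9, 34.4 and 15.5 RPKM in the same order.

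Spindle motors and assembly factors included the G2/M genes with the smallest adjusted p. Kif11, the motor that separates the spindle poles, was at 0 reads in 5 of 7 JAK2V617F + Ezh2 loss libraries and ran up to 6.12 RPKM. It ran from 0 to 7.95 RPKM with a median of 1.70 in JAK2V617F and from 0 to 17.1 with a median of 3.08 in Ezh2 loss libraries. The controls held 0, 0, 0.676, 0 and 0.0170 RPKM. In each singly mutated group 5 of 7 libraries lay above all controls, against 2 of 7 of the combined group. The log2 fold change against control was 2.17 for Ezh2 loss (SE 0.71, adjusted p = 0.473) and 1.24 for JAK2V617F (SE 0.71, adjusted p = 0.649). It was -1.79 for JAK2V617F + Ezh2 loss against Ezh2 loss (SE 0.65, adjusted p = 0.180) and -0.86 against JAK2V617F (SE 0.65, adjusted p = 0.516), or -0.56 without JAK2V617F replicate 5.

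Tpx2, which targets Aurora A to the spindle, ran from 0 to 8.19 RPKM with a median of 2.44 in JAK2V617F + Ezh2 loss, from 0 to 15.6 with a median of 4.56 in JAK2V617F, and from 0 to 18.5 with a median of 10.6 in Ezh2 loss libraries. Controls held 0, 0, 0, 1.64 and 1.41 RPKM. Above the highest control lay 6 of 7 JAK2V617F libraries and 5 of 7 Ezh2 loss libraries. Against control its log2 fold change was 1.94 for JAK2V617F (SE 0.77, adjusted p = 0.615) and 2.11 for Ezh2 loss (SE 0.77, adjusted p = 0.500), and -0.80 for JAK2V617F + Ezh2 loss against JAK2V617F (SE 0.70, adjusted p = 0.589). The last was -0.52 without JAK2V617F + Ezh2 loss replicate 6, -1.21 without JAK2V617F replicate 7 and -1.28 with the neutrophil covariate. Kif23, a motor of the cytokinetic midbody, averaged 17.7 ± 13 RPKM in JAK2V617F + Ezh2 loss and 7.01 ± 4.34 in control libraries. Its log2 fold change was 1.05 (SE 0.61, adjusted p = 0.977), with 5 of 7 libraries above the highest control. Kif20a, another cytokinesis motor, averaged 2.83, 5.81, 5.24 and 1.59 RPKM, and Nusap1, which bundles spindle microtubules, 10.9, 10.8, 30.8 and 4.43 RPKM in JAK2V617F + Ezh2 loss, JAK2V617F, Ezh2 loss and control libraries.

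Checkpoint and anaphase genes were at low or moderate levels. Cdc20 and Ube2c, the activator and the ubiquitin-conjugating enzyme of the anaphase-promoting complex, averaged 29.4 and 55.2 RPKM in JAK2V617F + Ezh2 loss, 26 and 14.8 in JAK2V617F, 52.2 and 80.8 in Ezh2 loss, and 12.5 and 7.5 in control libraries. The Ube2c mean of the combined group rested on 2 libraries at 283 and 89.2 RPKM, the others lying at or below 10.6 RPKM. For Ube2c the log2 fold change in JAK2V617F against Ezh2 loss was -2.18 (SE 1.32, adjusted p = 0.779), and that of Cdc20 in JAK2V617F + Ezh2 loss against JAK2V617F was 1.10 (SE 0.94, adjusted p = 0.578). The Cdc20 value was 0.52 without JAK2V617F replicate 7, 0.56 without JAK2V617F replicate 2 and 0.64 with the neutrophil marker covariate. The kinetochore checkpoint kinase Bub1 and its relative Bub1b averaged between 1.32 and 10.5 RPKM over the groups. The kinetochore proteins Cenpe and Cenpf stayed below 2 RPKM in every group mean, and Cenpe was at 0 reads in 4 of 5 controls. Its log2 fold change in JAK2V617F + Ezh2 loss against control was 0.87 (SE 0.55, adjusted p = 0.977), or 0.56 without JAK2V617F + Ezh2 loss replicate 7.

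Of the chromatin genes, Mki67, the coat protein of mitotic chromosomes used as the marker Ki-67, ran from 0.126 to 7.5 RPKM with a median of 0.987 in JAK2V617F + Ezh2 loss, from 0 to 19.7 with a median of 2.16 in JAK2V617F, and from 0.334 to 17.9 with a median of 7.05 in Ezh2 loss libraries. The controls held 0, 0.399, 2.88, 0 and 5.70 RPKM. Above every control lay 5 of 7 Ezh2 loss libraries, and 1 of 7 in each JAK2V617F-bearing group. In JAK2V617F + Ezh2 loss against Ezh2 loss its log2 fold change was -1.36 (SE 0.67, adjusted p = 0.330).

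Top2a, topoisomerase II alpha, ran from 0 to 37.7 RPKM with a median of 4.08 in JAK2V617F + Ezh2 loss, from 0.657 to 38.6 with a median of 17.8 in JAK2V617F, and from 5.02 to 38.4 with a median of 16.3 in Ezh2 loss libraries. Controls held 2.84, 1.82, 5.41, 0.374 and 15.1 RPKM. All groups overlapped, and the highest control was again the number-last library. Smc4, a core subunit of condensin, was the most evenly expressed G2/M gene, at 42.0 ± 15.4, 35.7 ± 13, 44.6 ± 19.7 and 29.0 ± 7.93 RPKM. The scaffold and cytokinesis genes Hmmr, Anln and Ect2 averaged between 0.536 RPKM (Anln in control) and 7.15 RPKM (Ect2 in Ezh2 loss).

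The comparison of Ezh2 loss with control addressed the effect of losing Ezh2 on an otherwise normal background. The log2 fold change was above 0 for 35 of 41 genes, 24 of 25 G2/M and 11 of 16 S genes, while 40.9% of all tested genes were above 0. The median log2 fold change was 1.64 for G2/M genes and 0.18 for S genes, against -0.12 for all tested genes. No member passed in limma's test with Benjamini-Hochberg adjustment, and neither did any other gene (0% of 12116). At an unadjusted p under 0.05 stood 7 of the 41, Cdc45, Mki67, Plk1, Kif11, Tpx2, Nusap1 and Ube2c, all higher in Ezh2 loss. Of all tested genes 8.32% stood there, 2.72% on the higher side. With title style as a covariate 24 of 25 G2/M genes remained above 0, with a median of 1.18, beside 47.9% of all tested genes. In number-first libraries alone 22 of 23 tested did, with a median of 1.63, beside 47.5%. No member's libraries were all above or all below the controls, beside 0.388% of all tested genes.

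Neutrophil and erythroid markers moved with this comparison. The summed level of 13 neutrophil markers ran from 744 to 38640 RPKM in Ezh2 loss and from 263 to 821 RPKM in control libraries, with 7 to 12 and 3 to 6 of the 13 at 1 RPKM or more. Lcn2, Mmp9, Retnlg and Ctsg were at 0 in all controls. The 13 erythroid markers in the table summed to between 1940 and 8489 RPKM in Ezh2 loss and between 1986 and 2580 RPKM in control libraries, with 4 to 11 and 5 to 6 of them at 1 RPKM or more. Car1 and Slc4a1 were at 0 in all controls, and Hba-a1 and Hba-a2 in every library. With the neutrophil marker level as a covariate, the log2 fold change was 1.79 for Kif11, 1.85 for Plk1, 0.76 for Tpx2, 1.33 for Cdc45, 0.68 for Tk1 and 0.85 for Rrm2, all below the values without it. With the erythroid level they were 1.80, 3.13, 1.4, 1.53, 1.95 and 1.21. No Ezh2 loss library was at or below the highest control in neutrophil markers, so the comparison cannot be made among libraries matched for them.

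JAK2V617F against control addressed the effect of the mutant kinase alone. The log2 fold change was above 0 for 35 of 41 genes, 22 of 25 G2/M and 13 of 16 S genes, beside 42% of all tested genes. The medians were 0.68 for G2/M and 0.48 for S genes, against -0.11 for all tested genes. No member passed, beside 0.00825% of all tested genes, which is 1 gene. Mcm6 and Tpx2 stood at an unadjusted p under 0.05, beside 7.93% of all tested genes. With title style as a covariate, 16 of 25 G2/M and 15 of 16 S genes were above 0, with medians of 0.38 for each class, beside 47.9% of all tested genes. No member's libraries were all above or below the controls, beside 0.264% of all tested genes. Neutrophil markers summed to between 405 and 17960 RPKM in JAK2V617F libraries, and Elane, Mpo and Ctsg were at 0 in all 7. In the 6 of 7 JAK2V617F libraries whose neutrophil markers did not exceed the highest control, the G2/M score difference from control was 0.87, against 0.75 with all 7. Of those 6 libraries 5 are number-last, against 1 of 5 controls, so title style was not matched.

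JAK2V617F + Ezh2 loss against control addressed the 2 changes together. Above 0 was the log2 fold change of 33 of 41 genes, 22 of 25 G2/M and 11 of 16 S genes, beside 52.8% of all tested genes. The medians were 0.48 for G2/M and 0.26 for S genes, against 0.03 for all tested genes. No member and no other gene passed (0% of 12116). Plk1 was the only member at an unadjusted p under 0.05, with 4.98% of all tested genes there. In number-first libraries, which hold all 7 of the combined group and 4 controls, 22 of 23 G2/M genes were above 0, with a median of 0.95, beside 48.6% of all tested genes. Neutrophil markers summed to between 250 and 52370 RPKM in the combined group. In the 3 of its libraries at or below the highest control in these markers, the G2/M score difference from control was -0.11, against 0.60 with all 7. Its erythroid markers summed to between 1551 and 2858 RPKM, and Car1, Slc4a1 and Ermap were at 0 in all 7.

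**Figure D4:**
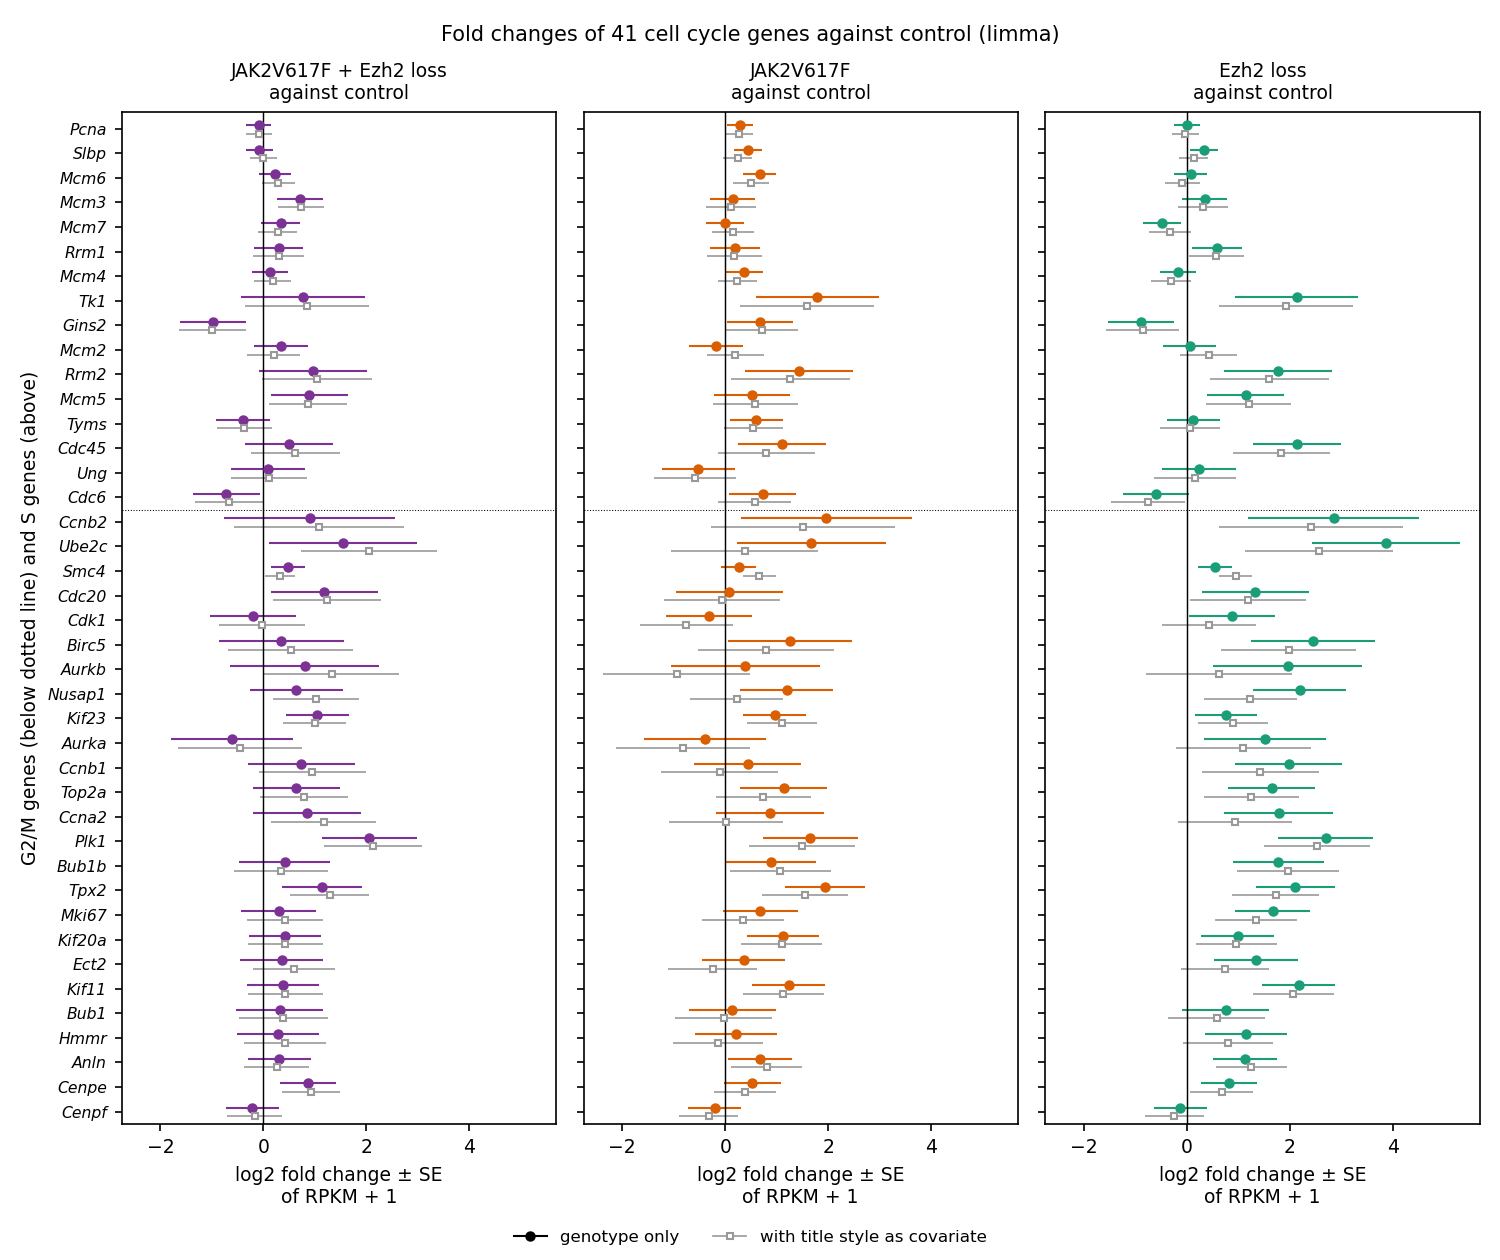
Log2 fold change of RPKM + 1 with its standard error for each of the 41 genes in each mutant group against control, filled without and open with title style as a covariate, genes ordered as in the map of levels. In Ezh2 loss 24 of 25 G2/M genes lie right of 0 in both fits, and no gene passed the adjusted test in any panel.

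Ezh2 loss on the JAK2V617F background was read from JAK2V617F + Ezh2 loss against JAK2V617F. Only 17 of 41 genes were above 0, 11 of 25 G2/M and 6 of 16 S genes, beside 58.8% of all tested genes. The medians were -0.03 for G2/M and -0.41 for S genes, against 0.14 for all tested genes. No member passed, beside 2.26% of all tested genes. The 4 S genes Tyms, Cdc6, Gins2 and Slbp stood at an unadjusted p under 0.05, each lower in the combined group. Of all tested genes 5.77% were lower at that p, 17.9% in either direction. With title style as a covariate 6 of 16 S genes and 16 of 25 G2/M genes were above 0, beside 50.8% of all tested genes, with medians of -0.20 and 0.37, so that the G2/M median changed sign. Neutrophil markers summed to between 250 and 52370 RPKM in the combined group and between 405 and 17960 RPKM in JAK2V617F libraries. Among the 3 and 6 libraries at or below the highest control in these markers, the G2/M score difference was -0.98, against -0.15 with all 7 of each group. Those 3 are all number-first and 5 of those 6 number-last, so this difference cannot be told apart from title style. In number-first libraries alone the difference was 0.09, and without JAK2V617F replicate 5 it was 0.14.

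JAK2V617F on the Ezh2 loss background was read from JAK2V617F + Ezh2 loss against Ezh2 loss. Here 7 of 41 genes were above 0, 2 of 25 G2/M and 5 of 16 S genes, beside 59.9% of all tested genes. The medians were -0.98 for G2/M and -0.13 for S genes, against 0.14 for all tested genes. No member passed, beside 0.702% of all tested genes, and the libraries of no member were separate, beside 0.578%. Mcm7, higher in the combined group, and Cdc45, Mki67 and Kif11, lower in it, stood at an unadjusted p under 0.05, beside 15.1% of all tested genes. With title style as a covariate 6 of 25 G2/M genes were above 0, with a median of -0.46, beside 50.2% of all tested genes. In number-first libraries 3 of 23 were, with a median of -0.60, beside 51.1%. Erythroid markers summed to between 1551 and 2858 RPKM in the combined group and between 1940 and 8489 RPKM in Ezh2 loss libraries, and neutrophil markers to between 250 and 52370 and between 744 and 38640 RPKM. The globin gene Beta-s fell in this comparison, with a log2 fold change of -5.12 (SE 1.05, adjusted p = 0.0355). That call was lost with title style as a covariate, where 0 genes passed. With the erythroid level as a covariate, Cdc45 was at -0.96, Mki67 at -0.98 and Kif11 at -1.38, each nearer to 0 than without it, and with the neutrophil level at -1.27, -1.01 and -1.62.

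JAK2V617F against Ezh2 loss, the comparison whose groups have the same make-up of title styles, had 10 of 41 genes above 0, 2 of 25 G2/M and 8 of 16 S genes, beside 50% of all tested genes. The medians were -0.93 for G2/M and -0.04 for S genes, against 0.0003 for all tested genes. No member passed, beside 0.0743% of all tested genes, and the libraries of no member were separate, beside 0.116%. Mcm6, Cdc6 and Gins2 stood at an unadjusted p under 0.05, all higher in JAK2V617F, beside 7.17% of all tested genes in either direction and 3.67% on that side. The G2/M score difference was -0.86, and -0.72 and -0.91 within number-first and number-last libraries. Erythroid markers summed to between 1897 and 2462 RPKM in JAK2V617F, against 1940 to 8489 RPKM in Ezh2 loss libraries. Of the marker lists, the neutrophil gene Retnlg fell by 5.54 (SE 1.10, adjusted p = 0.0322) and the globin gene Beta-s by 6.14 (SE 1.05, adjusted p = 0.0122) on the log2 scale in JAK2V617F against Ezh2 loss. In number-first libraries neither passed, with -5.73 for Retnlg and -1.36 for Beta-s (adjusted p = 0.804 and 0.965). With the neutrophil level as a covariate, Ube2c was at -0.62 and Ccnb1 at -0.67, against -2.18 and -1.53 without it, and with the erythroid level at -1.45 and -0.53. Cdc6 and Mcm6 were at 1.57 and 0.62 with the neutrophil level and at 2.32 and 1.18 with the erythroid one.

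Whether the 2 changes combine additively on the log scale was asked with the interaction, JAK2V617F + Ezh2 loss minus both singly mutated groups plus control. It was above 0 for 5 of 41 genes, 1 of 25 G2/M and 4 of 16 S genes, beside 60.4% of all tested genes. The medians were -1.69 for G2/M and -0.64 for S genes, against 0.25 for all tested genes. No member passed, beside 1.77% of all tested genes. The smallest adjusted p belonged to Kif11, with an interaction of -3.03 (SE 0.96, adjusted p = 0.0824), which passed without Ezh2 loss replicate 3 (-3.39, adjusted p = 0.0380). Tpx2 was at -2.91 (SE 1.04, adjusted p = 0.126), Nusap1 at -2.74 (SE 1.22, adjusted p = 0.224), Cdc45 at -2.74 (SE 1.15, adjusted p = 0.198), Slbp at -0.84 (SE 0.36, adjusted p = 0.205) and Tk1 at -3.14 (SE 1.62, adjusted p = 0.305). With title style as a covariate, 6 of 25 G2/M genes were above 0 and their median was -0.90, beside 51.7% of all tested genes above 0. The comparisons above share libraries, so their values are set side by side and are not separate evidence of one another.

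Title style itself was compared in a fit with genotype and style terms. Number-first against number-last libraries had 8 of 41 genes above 0, 4 of 25 G2/M and 4 of 16 S genes, beside 60.9% of all tested genes, with medians of -0.68 for G2/M and -0.13 for S genes. Of all tested genes 11% passed, and of the 41 only Smc4 did, with a log2 fold change of 0.79 (SE 0.26, adjusted p = 0.0449). Smc4 was at 42.6 RPKM in number-first (n = 2) and 33.0 in number-last JAK2V617F libraries (n = 5), at 70.4 (n = 2) and 34.3 RPKM (n = 5) in Ezh2 loss, and at 32.0 (n = 4) and 16.8 RPKM (n = 1) in control libraries. It was higher in number-first libraries of all 3 groups that hold both styles. The call was lost in 14 of 26 fits that left out 1 library, with adjusted p from 0.0177 to 0.126. It was also lost with median-ratio scaling (adjusted p = 0.0857), quantile normalization (0.116) and the number of detected genes as a covariate (0.0960).

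Markers of mature cells and the G2/M score were then set side by side by library. Ezh2 loss replicate 4 had the highest neutrophil score of all, the mean log2(RPKM + 1) of the 13 markers, at 7.99, with a G2/M score of 4.39. JAK2V617F + Ezh2 loss replicate 4 stood at 7.39 and 3.75. JAK2V617F + Ezh2 loss replicate 3 and JAK2V617F replicate 3 had neutrophil scores of 6.93 and 6.07 with G2/M scores of 1.66 and 1.61. JAK2V617F replicates 5, 4 and 6 had G2/M scores of 4.09, 3.61 and 2.86. Their neutrophil scores were 1.70, 1.96 and 1.77, inside the control range of 1.33 to 2.60. All 7 Ezh2 loss libraries had a neutrophil score above the control range, replicates 3 and 5 with G2/M scores of 1.25 and 1.04 among them. Ezh2 loss replicates 1, 2, 6 and 7 had neutrophil scores of 5.84, 4.50, 6.80 and 6.43. Their G2/M scores were 3.94, 4.66 (the highest of all), 3.58 and 3.53. In JAK2V617F + Ezh2 loss, replicate 7 had a G2/M score of 4.44 with a neutrophil score of 4.31, also above that range. Replicate 1 of the same group had a G2/M score of 1.06 with a neutrophil score of 2.66, above that range as well. The erythroid score was 5.07, 3.38 and 5.31 in Ezh2 loss replicates 1, 2 and 6. In Ezh2 loss replicates 3, 4, 5 and 7 it was 1.74, 2.16, 3.84 and 1.84. It ran from 1.67 to 1.97 in control libraries, and reached 1.94 in JAK2V617F + Ezh2 loss and 1.81 in JAK2V617F libraries. The HSC score was formed in the same way from 14 markers. Cd48 is among them, at 0 in all controls, and so can raise only mutant scores. The HSC score ran from 5.65 to 5.96 in control libraries. Most libraries above the highest control in G2/M score lay below that range. These were JAK2V617F replicates 5, 4 and 6 (5.46, 5.18 and 5.31) and JAK2V617F + Ezh2 loss replicate 4 (5.56). Ezh2 loss replicates 1, 2, 6 and 7 (5.49, 5.47, 5.30 and 5.60) were below it too. JAK2V617F + Ezh2 loss replicate 7 and Ezh2 loss replicate 4, also high in G2/M score, were inside it at 5.88 and 5.84. Lower in G2/M score, JAK2V617F replicates 1 and 7 and Ezh2 loss replicate 5 were below it at 5.47, 5.58 and 5.33. Their G2/M scores were 2.60, 0.80 (the lowest of all) and 1.04.

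**Figure D5:**
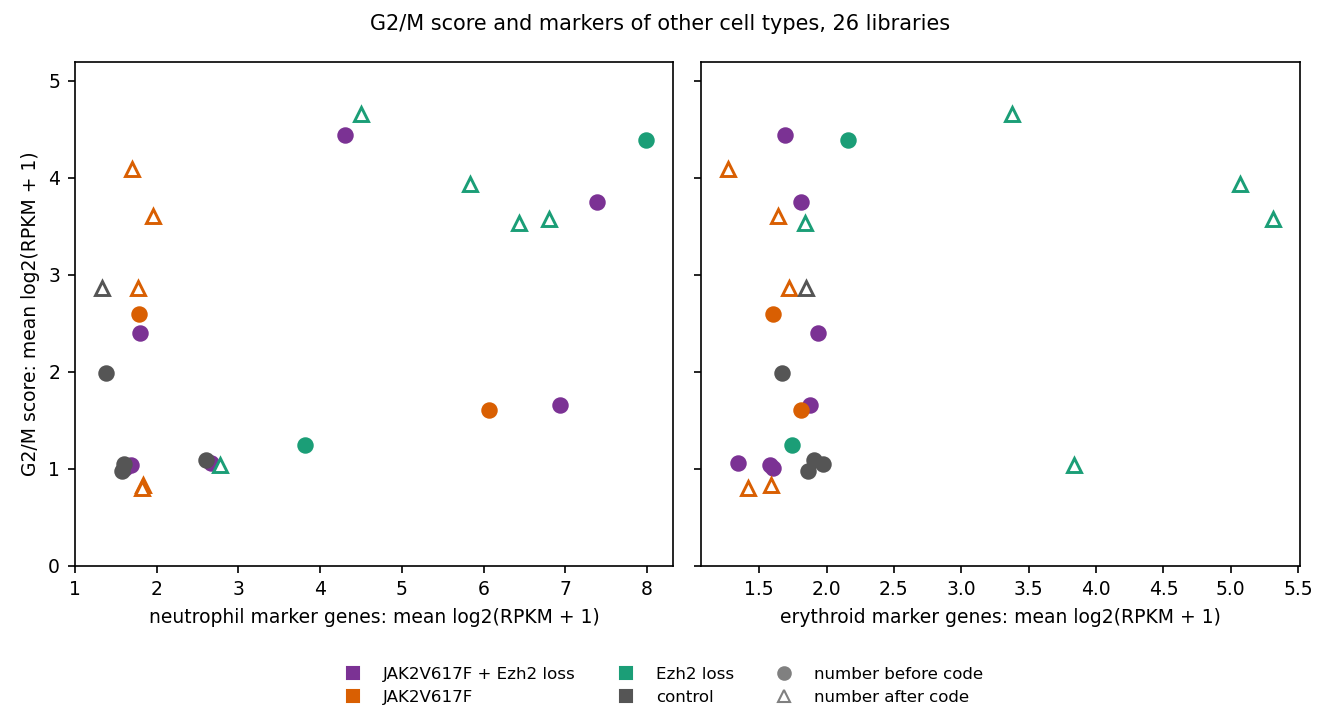
G2/M score of each library against the mean log2(RPKM + 1) of 13 neutrophil markers (left) and of the erythroid markers (right), coloured by genotype. The JAK2V617F libraries with G2/M scores of 4.09 and 3.61 lie at low values of both markers. All 7 Ezh2 loss libraries, with high or low G2/M scores, lie above the control range of neutrophil markers.

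Within each class the genes moved together across libraries to different degrees. After the mean of each title style was subtracted, the correlation of a G2/M gene with the score of the other 24 had a median of 0.798 over the 26 libraries. It was highest for Birc5 (0.921) and Ccnb2 (0.901) and lowest for Kif23 (0.228) and Anln (0.300). For S genes the median was 0.574, from 0.223 for Gins2 to 0.731 for Tyms. The G2/M genes followed the S score nearly as closely, with a median of 0.554, so that likeness was not particular to the S class. The S genes had a median of 0.389 with the G2/M score. For all tested genes the median correlation was -0.018 with the G2/M score and -0.009 with the S score, and the 95th percentiles were 0.392 and 0.411. Points share the library, its depth and any cells of other types in it, so these values are descriptions. Outside the 41, the genes most like the G2/M score were Ska1 (0.915), Hmgb2 (0.908), Cdca3 (0.891), Cdkn3 (0.879), Cdca8 (0.875), Cenpa (0.863), Fam64a (0.849), H2afz (0.849), Nuf2 (0.845) and Asf1b (0.838). Those most like the S score were Tuba1b (0.863), Pbk (0.827), Ndc80 (0.795), Ncaph (0.793), 2810417H13Rik (0.783), Cdca3 (0.781), Fen1 (0.768), H2afz (0.755), Spc24 (0.754) and Ska1 (0.754).

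Wider cell cycle lists placed the 41 genes in context. Of 55 other tested mitosis genes, 43 were above 0 in JAK2V617F + Ezh2 loss, 38 in JAK2V617F and 47 in Ezh2 loss against control, with medians of 0.24, 0.42 and 0.80. Of all tested genes 52.8%, 42% and 40.9% were above 0 in the same order. Among 43 other replication genes the number above 0 was 22, 25 and 22, with medians of 0.009, 0.20 and 0.005. Of 23 G1 cyclins, kinases and E2F factors it was 14, 9 and 11, with medians of 0.08, -0.17 and -0.24, and of 16 cycle inhibitors and pocket proteins it was 6 in each, with medians of -0.07, -0.16 and -0.23. None of these genes passed against control. The next 2 genes are named because they passed elsewhere, after their values were seen. Cenpw, a kinetochore protein of the mitosis list, fell in JAK2V617F + Ezh2 loss against Ezh2 loss (log2 fold change -1.38, SE 0.33, adjusted p = 0.0468) and in the interaction (-2.0, SE 0.49, adjusted p = 0.0311). Mycn, a growth-promoting transcription factor, rose in JAK2V617F + Ezh2 loss against Ezh2 loss (1.2, SE 0.29, adjusted p = 0.0478). None of these 3 calls passed with title style as a covariate (adjusted p = 0.390, 0.753 and 0.605). Cdkn2a and Cdkn2b, the inhibitors of CDK4 and CDK6 known as PRC2 targets, were at 0 in every library.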

How the data were processed

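Total RNA of HSCs sorted from mouse bone marrow was sequenced as 26 Smart-Seq2 libraries, grouped by the genotype label. The authors deposited RPKM values for 23416 genes in 1 table, made with STAR 2.4.2a, SAMtools 0.1.19 and Subread 1.5.0 on mm10/GRCm38, per the submitters' processing notes. Settings, annotation and gene lengths were not given in the sources used here. The values lie on whole-read steps: all 1066 values of the 41 genes came out whole within 0.05 of a read, which gave reads and depth.

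A linear model with 1 mean per genotype was fitted to log2(RPKM + 1) of the 12116 genes that reached 1 RPKM in 5 or more libraries, with limma 3.58.1 (R 4.3.3, eBayes, trend and robust). Tests were two-sided, adjusted by Benjamini-Hochberg over all tested genes, with a threshold of 0.05, and each adjusted p is limma's. Fold changes on this scale understate those of low genes. Levels, scores and promoter searches used Python 3.11.15, with RefSeq promoters on GRCm38.p6.

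The 41 genes, the wider cell cycle lists, the marker lists (HSC, neutrophil, erythroid, megakaryocyte, B cell, T and NK cell, monocyte and macrophage) and the tests were chosen with earlier results of these data known. Genes given with fold changes are those passing in a comparison, otherwise the 3 S and 3 G2/M genes with the smallest p. Those named so in at least 2 comparisons, and Mcm6, Pcna, Mki67, Top2a and Ccnb1, have values by library. Alternatives were a pseudocount of 0.1, no filter, median-ratio and quantile scaling, title style or detected genes as covariates, number-first libraries alone, only the groups compared, and leaving out each library. Marker covariates and the libraries low in neutrophil markers were added after the values were seen.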

Additional observations from a re-analysis of the deposited data

Results flagged for a closer look

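Of 64 sets of 4 to 10 values examined (each fully described gene and each score within a group), 4 held a library far from the others on the log2(RPKM + 1) scale by Dixon's 95% criterion. Chance gives about 1 in 20 such sets. Cdc45 in Ezh2 loss replicate 3 was at 3.67 RPKM, while the other 6 libraries of the group lay above the highest control. Gins2 in Ezh2 loss replicate 1 was at 0 reads. Kif11 in JAK2V617F + Ezh2 loss replicate 6 was at 6.12 RPKM, while 5 of the other 6 libraries were at 0. Kif11 in control replicate 3 was at 0.676 RPKM, while the other controls were at or near 0.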

How the results depend on the processing

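No paired analysis was possible because replicate numbers follow accession order and pair nothing. In the 7 genotype comparisons, the number of the 41 genes past the threshold stayed at 0 under 248 of 251 alternatives and reached 1 in 3: Gins2 in JAK2V617F + Ezh2 loss against JAK2V617F, with only the groups compared (1) and without Ezh2 loss replicate 1, and Kif11 in the interaction without Ezh2 loss replicate 3, so both ranged from 0 to 1. No named gene reversed when a library was left out. Gene reversals were Slbp in JAK2V617F + Ezh2 loss against Ezh2 loss (log2 0.038 in number-first libraries, 0.0268 with the erythroid covariate) and Ccnb1 in JAK2V617F against Ezh2 loss (0.0467 in number-first libraries). Score differences also changed sign, and those against control are given above. For G2/M in JAK2V617F + Ezh2 loss against JAK2V617F, -0.149 became 0.091 in number-first libraries and 0.143 without JAK2V617F replicate 5, as given above. For S in JAK2V617F against Ezh2 loss, 0.096 became -0.106 without Ezh2 loss replicate 5. For title style, the members past the threshold were 1, and 0 with median-ratio scaling, quantile normalization or the detected-gene covariate, and 0 to 2 with a library left out.

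Counts over all genes moved more. JAK2V617F against control gave 1, then 2 without the filter, 0 with the style covariate, number-first libraries, detected-gene covariate or only the groups compared, and 0 to 3 with a library left out. Ezh2 loss against control gave 0, then 2 with only the groups compared, 1 with the erythroid covariate, and 0 to 1. JAK2V617F + Ezh2 loss against control gave 0, then 1 with the style or the detected-gene covariate. JAK2V617F + Ezh2 loss against JAK2V617F gave 274, then 156 without the filter, 4 with style, 8 in number-first libraries, 5 with detected genes, 128 with the neutrophil covariate, and 83 (without JAK2V617F replicate 6) to 673 (without JAK2V617F replicate 3). JAK2V617F + Ezh2 loss against Ezh2 loss gave 85, then 13 without the filter, 0 with style, detected genes or the erythroid covariate, 8 in number-first libraries, and 0 (without any of JAK2V617F + Ezh2 loss replicates 2, 4, 5, 6 and 7 or Ezh2 loss replicate 6) to 218 (without Ezh2 loss replicate 4). JAK2V617F against Ezh2 loss gave 9, then 5 without the filter, 0 in number-first libraries or with the neutrophil covariate, 3 with the erythroid one, and 6 to 12 with a library left out. The interaction gave 215, then 122 without the filter, 0 with style, number-first libraries, detected genes or the erythroid covariate, and 5 (without control replicate 2) to 637 (without control replicate 5). Title style gave 1331, then 500 with the detected-gene covariate, and 987 to 1373. Number-first fits hold fewer libraries; other causes were not tested. G2/M genes at 0 reads limit what any fit can show.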

Other observations

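Of the cell cycle genes outside the 41, those past the threshold by title style were 4 higher and 2 lower of 55 mitosis genes, 0 and 1 of 43 replication genes, 2 and 1 of 23 G1 genes, and 1 and 1 of 16 inhibitor genes, beside 11% of all tested genes. In the fit with genotype and style terms, Cdkn1c, the CDK inhibitor p57 known for its part in HSC quiescence, was higher in number-first libraries (log2 fold change 2.44, SE 0.41, limma adjusted p = 9.03e-05). Cdkn1b, the related inhibitor p27, was lower in them (-2.65, SE 0.50, adjusted p = 0.00044). The histone variant genes H2afz (1.63, SE 0.20, adjusted p = 6.5e-07) and H2afx (1.59, SE 0.36, adjusted p = 0.00269), the G1 cyclin Ccnd3 (1.48, SE 0.29, adjusted p = 0.000596) and E2f4 (1.52, SE 0.30, adjusted p = 0.000743) were higher in number-first libraries. Cdk2 (-0.83, SE 0.23, adjusted p = 0.0135) and the mitosis gene Ckap2 (-2.40, SE 0.74, adjusted p = 0.031) were lower in them. These genes are named because they passed, after their values were seen.

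Lymphoid, monocyte and megakaryocyte markers were also followed. Of 9 B cell markers 1 to 4, of 8 T and NK cell markers 2 to 5, and of 8 monocyte and macrophage markers 1 to 7 stood at 1 RPKM or more in a library. Pax5 and Cd3e were at 0 in every library. Of 8 megakaryocyte markers 5 to 7 did, with Gp6 at 0 throughout. In JAK2V617F + Ezh2 loss against JAK2V617F, Vwf, a platelet adhesion gene, was lower (-1.66, SE 0.38, adjusted p = 0.02). It did not pass with title style as a covariate (adjusted p = 0.173).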
